A study of Mus musculus with 16 samples.

Results

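In mammalian genomes most CpGs are methylated, while the CpG-dense stretches at gene starts are usually free of methylation in every tissue. Described here are 383 CpG-dense promoters in spleen lymphocytes whose methylation level was at least 70% in both B and T cells. CpG-dense means here at least 25 CpGs in the window defined next, with no limit on the observed-to-expected ratio of CpGs. By the median, the 383 held fewer CpGs than unmethylated promoters and had a lower ratio. A promoter was the window of 500 bp on either side of the 5′ end of a protein-coding gene record of GENCODE vM21 on chromosomes 1 to 19 of mm10, with 1 window per gene. Of 20807 such windows, 12816 held at least 25 CpGs and at least 300 methylation calls in each cell type, and the 383 methylated promoters were 2.99% of these. A further 11798 CpG-dense promoters had a level of 20% or less in both cell types, and 635 belonged to neither class. The 383 were chosen by their pooled B and T cell levels, so these levels are given as a description with no test.

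The levels came from 16 whole genome bisulphite sequencing (WGBS) libraries. The cells came from spleens of C57BL/6J animals 6 to 8 weeks old, with no treatment named in the labels. B cells were resting CD43- cells and T cells were naive CD4+ CD62L+ cells, both isolated with magnetic beads. The series text calls the source samples pooled. Each combination of cell type, sex and assay had 2 libraries. In standard bisulphite (BS) sequencing 5-methylcytosine and 5-hydroxymethylcytosine are both read as methylated, and in oxidative bisulphite (oxBS) sequencing only 5-methylcytosine is. A portion of each DNA sample was oxidised and no individual mouse is named, so libraries may share mice or DNA. All p-values measure only the spread between libraries, which may be technical, or the counting error of the calls where that was larger.

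CpG-rich promoters of germ cell genes are a textbook exception to the rule that CpG islands stay unmethylated. Their products pair meiotic chromosomes, make the small RNAs that silence transposons, or build the sperm, and in somatic cells many of these promoters become methylated early in development. Retrogenes, which are intronless copies of a parent mRNA, and genes with several start sites can also carry methylation at a CpG-rich start.

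The 300 bases upstream of the start are shown for the 5 promoters with the most CpGs among the methylated promoters of germ cell genes, read 5′ to 3′ from GRCm38 with the CpGs in capitals. They are shown because every capital pair is a CpG that was mostly methylated in lymphocytes. *Ddx4* encodes an RNA helicase that marks germ cells (chr13:112652476-112652775, minus strand), and *Dazl* an RNA-binding protein needed for germ cell development (chr17:50293637-50293936, minus strand). *D1Pas1* is an intronless RNA helicase gene expressed in the testis (chr1:186967116-186967415, plus strand). *Sycp1* encodes the transverse filament protein of the synaptonemal complex (chr3:102936101-102936400, minus strand), and *Adad1* an RNA-binding protein of the testis (chr3:37063227-37063526, plus strand).
Ddx4: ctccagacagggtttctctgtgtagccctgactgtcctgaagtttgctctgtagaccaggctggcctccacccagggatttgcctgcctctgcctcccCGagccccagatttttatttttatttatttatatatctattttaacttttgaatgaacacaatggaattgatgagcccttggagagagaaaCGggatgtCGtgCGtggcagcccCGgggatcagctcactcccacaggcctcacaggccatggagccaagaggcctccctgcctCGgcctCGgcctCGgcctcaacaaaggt
Dazl: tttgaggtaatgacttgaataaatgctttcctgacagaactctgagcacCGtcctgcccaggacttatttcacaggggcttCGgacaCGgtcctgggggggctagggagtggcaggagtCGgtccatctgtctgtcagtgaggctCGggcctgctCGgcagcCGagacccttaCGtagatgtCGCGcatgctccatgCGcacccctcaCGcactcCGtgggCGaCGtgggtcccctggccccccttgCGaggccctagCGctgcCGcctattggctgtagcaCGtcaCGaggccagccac
D1Pas1: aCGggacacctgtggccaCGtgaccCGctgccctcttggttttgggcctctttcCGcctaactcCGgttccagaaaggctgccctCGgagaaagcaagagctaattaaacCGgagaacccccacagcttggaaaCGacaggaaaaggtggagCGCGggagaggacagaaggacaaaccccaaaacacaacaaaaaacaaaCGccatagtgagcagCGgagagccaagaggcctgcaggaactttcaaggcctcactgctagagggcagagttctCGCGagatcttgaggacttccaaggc
Sycp1: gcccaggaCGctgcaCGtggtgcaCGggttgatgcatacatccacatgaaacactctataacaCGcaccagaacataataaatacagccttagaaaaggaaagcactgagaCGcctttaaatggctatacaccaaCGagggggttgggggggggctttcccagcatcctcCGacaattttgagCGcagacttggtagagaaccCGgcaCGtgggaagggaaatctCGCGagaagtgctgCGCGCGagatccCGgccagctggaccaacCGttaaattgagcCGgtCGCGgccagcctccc
Adad1: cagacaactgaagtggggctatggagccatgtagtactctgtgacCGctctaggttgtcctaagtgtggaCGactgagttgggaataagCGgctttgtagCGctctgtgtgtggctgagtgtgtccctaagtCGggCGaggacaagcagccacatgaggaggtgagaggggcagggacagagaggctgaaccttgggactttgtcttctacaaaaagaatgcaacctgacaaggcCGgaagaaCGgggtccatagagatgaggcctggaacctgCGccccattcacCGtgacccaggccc
These stretches held 8 CpGs in *Ddx4*, 20 in *Dazl*, 14 in *D1Pas1*, 20 in *Sycp1* and 10 in *Adad1*. In *Dazl* the lowest of the 20 CpGs was methylated at 94.0% in B cells, and the lowest in T cells was at 90.9%. In *Sycp1* the lowest CpG of B cells was at 94.3% and that of T cells at 83.6%. At *D1Pas1* 13 of the 14 CpGs were at 80% or more in both cell types, and the remaining one was at 78.8% in B cells. In each of the other 4 stretches all CpGs were at 80% or more. The median number of pooled calls behind a CpG ran from 37.5 in B cells at *Ddx4* to 90.5 in T cells at *Adad1*.

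Methylation of the 383 promoters was high in both cell types by the rule, and the medians were close. The median pooled level was 91.9% in B cells, and in T cells it was 92.0%, with 207 promoters (54.0%) at 90% or more in both. At the promoters of 20% or less, the medians were 1.28% for B cells and 0.906% for T cells. The 5 highest, ranked by the smaller of both levels, were the promoters of *Itgad*, *Tmprss12*, *Hist1h2ba*, *Hsf5* and *Trim52*, all at 97.0% or more. *Itgad* encodes an integrin alpha chain of myeloid cells, *Tmprss12* a serine protease of the testis and *Hsf5* a heat shock factor of spermatocytes. At *Hsf5* the B cell libraries ran from 95.4 to 98.8% with a median of 97.1%, and the T cell libraries from 94.4 to 98.7% with a median of 97.5%. The ranges at *Hsf5*, which held 94 CpGs, overlapped almost fully.

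Just inside the limit were *2410137M14Rik* (70.2% for B and 75.4% for T cells), *Adcy4* (70.3 and 81.9%), *Foxs1* (74.5 and 70.5%), *Lmod1* (71.1 and 70.5%) and *Nfic* (70.8 and 72.7%). Just outside it were *Lrrc10* with 69.7% for B and 71.8% for T cells, *Gm9857* with 75.7 and 69.7%, and *Prss8* with 69.6 and 76.8%.

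**Figure D1:**
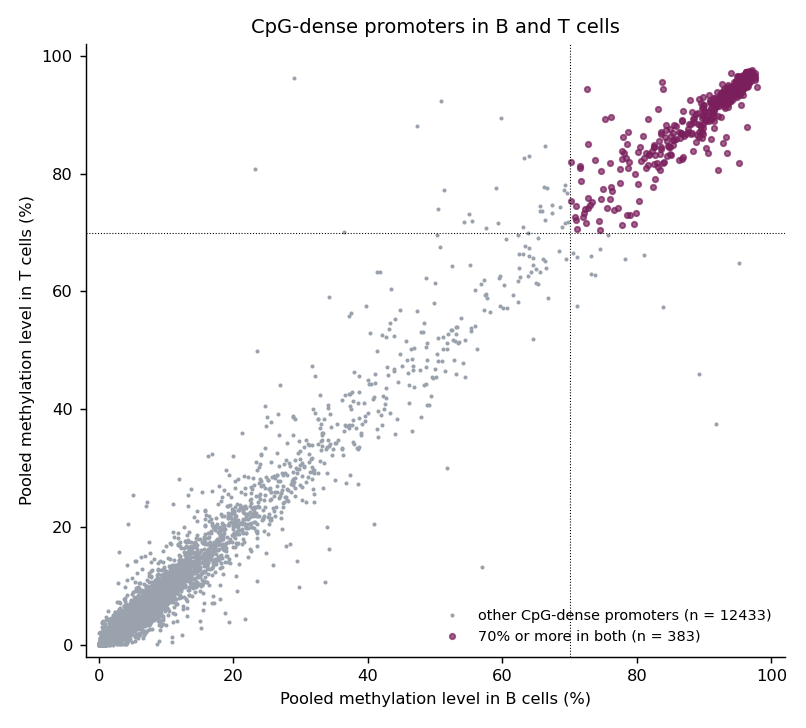
Pooled methylation level in B cells (x axis, %) and T cells (y axis, %) of 12816 CpG-dense promoters, 1 point each, with lines at 70%. The 383 promoters described here lie in the upper right corner, and most of the others lie near 0 in both cell types.

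On 4 lists of germ cell genes, 99 promoters were CpG-dense, and 54 of these (54.5%) were methylated in both cell types, against 2.99% of all CpG-dense promoters. Since the lists were chosen with results of these data known, the shares of the lists are a description and no evidence that they differ from other genes. The medians of the 54 were 93.2% for B cells and 93.0% for T cells.

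On the list of piRNA and transposon defence genes, 14 of 22 CpG-dense promoters were methylated. piRNAs are the small RNAs that guide transposon silencing in the germ line. *Mael*, whose product acts in the piRNA pathway, had a mean level of 93.0% ± 1.03 in B cells (SD, n = 8 libraries) and 92.4% ± 1.73 in T cells over 61 CpGs. *Ddx4* was at 96.6% ± 0.902 and 96.3% ± 1.33 over 73 CpGs. *Mov10l1*, an RNA helicase gene of piRNA biogenesis, was at 96.1% ± 0.723 and 94.9% ± 1.51. The level of *Piwil2*, whose product binds piRNAs, was 92.5% ± 1.48 for B cells and 93.1% ± 1.10 for T cells. The other methylated promoters of this list were those of *Asz1*, *Fkbp6*, *Gpat2*, *Gtsf1*, *Rnf17*, *Stk31*, *Tdrd1*, *Tdrd9*, *Tdrd12* and *Tex19.1*, with pooled levels between 73.8% (*Tdrd1*, T cells) and 97.0% (*Stk31*, T cells).

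*Tdrd1*, a tudor domain gene, was the lowest of these. At *Tdrd1* the B cell libraries ran from 65.6 to 86.3% with a median of 78.0%, and the T cell libraries from 69.9 to 80.3% with a median of 72.1%. The ranges overlapped. The 5 promoters of the list at 20% or less were those of *Mybl1*, *Tdrd5*, *Exd1*, *Tdrkh* and *Pld6*. *Mybl1*, which encodes a transcription factor that drives piRNA genes in the testis, held 104 CpGs at 0.698 and 0.866%.

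On the list of meiotic chromosome genes, 14 of 33 CpG-dense promoters were methylated, 14 were at 20% or less and 5 lay between. The synaptonemal complex, which joins paired meiotic chromosomes, was represented by *Sycp1*, *Sycp2*, *Sycp3*, *Syce1*, *Syce3* and *Tex12*. *Sycp3* was at 95.4% ± 1.44 in B and 95.3% ± 1.39 in T cells. *Tex12* was at 97.3% ± 1.48 and 96.9% ± 1.12, and *Sycp2* at pooled levels of 89.2 and 87.0%. By contrast *Syce2*, another component, was at 2.30 and 1.26%. *Hormad1* and *Hormad2* encode proteins of meiotic chromosome axes. They were at 95.4 and 83.6% in B cells, and at 95.5 and 84.2% in T cells. *Msh4*, *Rnf212*, *Rnf212b* and *Spata22*, which act in recombination, and *Majin* and *Terb2*, which tether telomeres to the nuclear envelope, completed the methylated group. Among the promoters at 20% or less was that of *Prdm9*, which encodes the enzyme that places recombination sites (0.469 and 0.238%). The recombinase gene *Dmc1* lay between, at 27.3 and 29.2%.

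On the list of germ cell identity and gene control genes, 11 of 21 were methylated, 8 were at 20% or less and 2 lay between. *Dazl* was at 96.9% ± 0.964 for B and 95.7% ± 1.89 for T cells over 70 CpGs. *Sohlh1* and *Sohlh2* encode transcription factors of early germ cell differentiation. In B cells they were at 87.4% ± 2.64 and 95.3% ± 1.27, and in T cells at 86.8% ± 2.18 and 95.5% ± 1.02. *Brdt*, the testis member of the BET bromodomain family, was at 96.9% ± 1.08 and 97.0% ± 0.991. *Ctcfl*, the germ cell paralogue of *Ctcf*, was at 87.2% ± 3.74 and 88.3% ± 1.74, and *Ctcf* itself at 0.0699 and 0.321%. *Dmrtb1*, *Dnd1*, *Dppa3*, *Dppa5a*, *Nobox* and *Zp3* were the others. *Nobox*, an oocyte transcription factor gene, was the lowest of the 11. At *Nobox* the B cell libraries ran from 75.2 to 83.2% with a median of 79.7%, and the T cell libraries from 65.9 to 75.7% with a median of 71.8%. The lowest B cell library lay just below the highest T cell library.

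On the list of later sperm and testis genes, 15 of 23 were methylated. *Hist1h2ba* and *Hist1h2aa*, testis variants of histones H2B and H2A, were at 97.6 and 97.6% in B cells, and in T cells at 97.1 and 96.5%. Their starts lie 306 bp apart, so the windows shared CpGs. *Slc25a31*, the germ cell ADP/ATP carrier gene, was at 96.2% ± 1.27 and 97.2% ± 1.06 over 61 CpGs. *Rpl10l*, a retrogene of a ribosomal protein gene, was at 97.2% ± 0.893 and 96.8% ± 0.751. *D1Pas1* was at 91.4% ± 3.58 and 91.5% ± 2.32, and *Adad1* at 85.3% ± 4.38 and 86.5% ± 4.02. *Adad2*, *Dpep3*, *Hist1h1t*, *Prss21*, *Spaca1*, *Spata16*, *Tssk2*, *Tuba3a* and *Tuba3b* were the others. *Spaca1*, a sperm acrosome gene, had the widest spread of all 383 promoters between B cell libraries, with an SD of 11.1 points. At *Spaca1* the B cell libraries ran from 52.7 to 87.5% with a median of 74.9%, and the T cell libraries from 71.02 to 88.7% with a median of 81.1%. Across the 383 promoters the median SD between libraries was 1.96 points in both cell types.

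**Figure D2:**
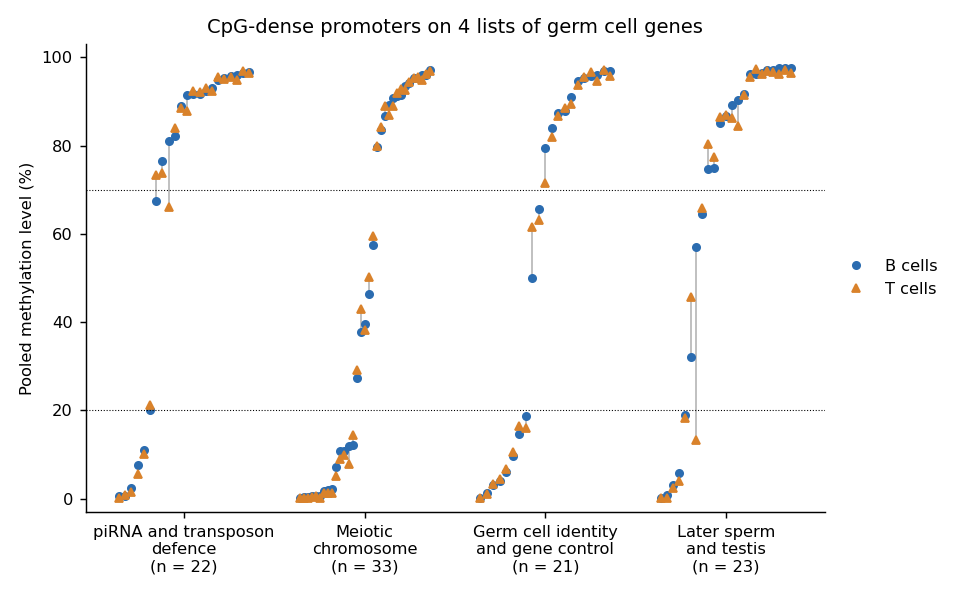
Pooled methylation level (y axis, %) in B cells and T cells of the CpG-dense promoters on 4 lists of germ cell genes, with lines at the limits of 20 and 70%. Most genes lie above 70% or below 20% in both cell types, and *Tnp2*, with 56.9% in B and 13.2% in T cells, shows the largest difference.

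Other gene groups were counted in the same way, against the 2.99% of all CpG-dense promoters. Of 61 CpG-dense promoters of genes named Hist, 58 were at 20% or less and 3 (4.92%) were methylated, the testis genes *Hist1h2ba*, *Hist1h2aa* and *Hist1h1t*. *Hist1h1t*, the testis linker histone gene, was the lowest of the 3. At *Hist1h1t* the B cell libraries ran from 66.7 to 83.5% with a median of 75.5%, and the T cell libraries from 70.99 to 84.5% with a median of 77.0%. Of 284 genes named Zfp, most of which encode zinc finger proteins, 3 (1.06%) were methylated. These were *Zfp541*, with 94 CpGs at 76.0 and 81.8%, *Zfp229* at 96.2 and 97.2%, and *Zfp37* at 82.6 and 84.8%. The developmental Hox, Pax, Sox, Fox, Lhx, Nkx and Dlx genes had 119 CpG-dense promoters, of which 4 (3.36%) were methylated. *Hoxa5*, which patterns the body axis, was at 83.9% in B and 94.4% in T cells over 74 CpGs. Its neighbours differed from it, with *Hoxa4* at 1.56 and 1.61%, *Hoxa6* at 16.3 and 32.1% and *Hoxa7* at 0.796 and 1.59%. The forkhead genes *Foxr1*, *Foxi1* and *Foxs1* were the others.

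Of 42 CpG-dense promoters on a list of imprinted genes, 16 lay between the limits and 3 (7.14%) were methylated, those of *Mcts2*, *Jade1* and *Fkbp6*. *Mcts2*, a retrogene inside *H13*, was at 95.2% ± 1.86 and 95.4% ± 1.75 over 61 CpGs, while the *H13* start was at 0.892 and 0.764%. Of 34 CpG-dense starts of clustered protocadherins, neuronal cell surface genes, 0 were methylated and 31 lay between the limits. Of the olfactory and vomeronasal receptor genes, 3 starts were CpG-dense, and *Olfr212* was methylated at 96.0 and 95.5%. Among 521 genes known by a Gm or Rik name alone, 55 (10.6%) were methylated. They included *4933428G20Rik*, whose 109 CpGs were the most of all 383, at 95.8 and 96.1%. *4933416C03Rik* was at 96.9 and 96.7% over 68 CpGs, and *1700067K01Rik* at 96.0 and 96.2% over 66.

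Some families were chosen after their values were seen, so their shares are not to be read against the 2.99% of all CpG-dense promoters. Keratins form the intermediate filaments of epithelia, and 17 of 21 CpG-dense keratin starts were methylated, with pooled levels from 74.1 to 95.9% and on 2 chromosomes. Crystallins are structural proteins of the lens, and 6 of 7 were methylated, with levels from 73.4 to 95.2%. Of 13 CpG-dense starts of protease genes named Prss, 7 were methylated. Shares were lower in the Cmtm genes (3 of 7), the claudins of tight junctions (3 of 13) and the Adam genes (3 of 14).

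The methylated promoters held between 25 and 109 CpGs, with a median of 30, against a median of 66 at promoters of 20% or less. Of the promoters with 25 to 29 CpGs, 27.0% were methylated, against 10.2% with 30 to 39, 1.48% with 40 to 59 and 0.236% with 60 or more, where 17 of 7209 were. Within the 383, the median of the smaller level was 89.7, 91.5, 93.2 and 95.1% in the same 4 classes. The observed-to-expected ratio of CpGs had a median of 0.441 in the 383 windows and 0.749 in those at 20% or less, and the medians of GC content were 53.6 and 60.1%. The 54 germ cell promoters lay between, with a median of 41.5 CpGs and a ratio of 0.528.

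Gene structure differed as well, described here with no test. In 119 of 383 windows (31.1%), 50% or more of the CpGs lay in coding sequence, against 5.95% of windows at 20% or less. Single-exon coding genes made up 76 of the 383 (19.8%), against 3.03%. They included *D1Pas1*, *Rpl10l*, *Mcts2* and *Hus1b*. In 72 cases (18.8%) the start lay inside another protein-coding gene record, against 12.4%, and in 19 cases (4.96%) another protein-coding start lay within 500 bp, against 17.2%. Overlapping windows joined 19 of the 383 promoters in 11 pairs, such as *Gml* with *Gml2* and *Dgcr2* with *Tssk2*, so that these do not give separate measurements.

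Short motifs were counted on either strand in the 300 bases upstream of the start. CACGTG, the E-box bound by MYC and related factors, occurred in 18 of the 54 germ cell promoters (33.3%), in 8.81% of the other 329 methylated promoters and in 9.79% of all CpG-dense promoters. Of the sequences shown above, that of *Sycp1* held 2 copies and that of *D1Pas1* held 1. TCCCGC or its complement GCGGGA, a core of E2F sites, occurred in 27.8% of germ cell promoters and in 33.5% of all. GGGCGG or CCGCCC, the core of SP1 sites, occurred in 42.6 and 61.1%, and in 28.0% of the other methylated promoters. The palindromic core of NRF1 sites occurred in 5 of 54 germ cell promoters (9.26%) and in 1.60% of all. These counts describe letters in a window and not binding.

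Within the window, the levels follow in part from the rule, which set the mean of the window in each class, so the bins are a description. In bins of 100 bp, the mean level of the 54 germ cell promoters was lowest in the window at 90.1% in B cells and 89.5% in T cells, both in the bin that begins 100 bp downstream. The bin before it was close, at 90.3 and 89.9%, and the lowest bin was drawn down by *Nobox*, which was at 11.7% there. Promoters at 20% or less had their lowest mean in the first bin downstream of the start, with 1.29% for B and 1.11% for T cells. The lowest bin of a methylated window, among bins with at least 2 CpGs and 50 calls, had a median of 81.7% over the 383, and in 208 windows (54.3%) it was at 80% or more. In 6 windows a bin fell under 20%, those of *Gm6169*, *Nobox*, *Tnni3*, *Gas2l2*, *Ttc30a2* and *Hrct1*. In *Nobox* that bin began 100 bp downstream of the start and was at 11.7%, and in *Tnni3*, a cardiac troponin gene, 300 bp upstream and at 2.89%. These 6 windows mixed methylated and unmethylated stretches.

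**Figure D3:**
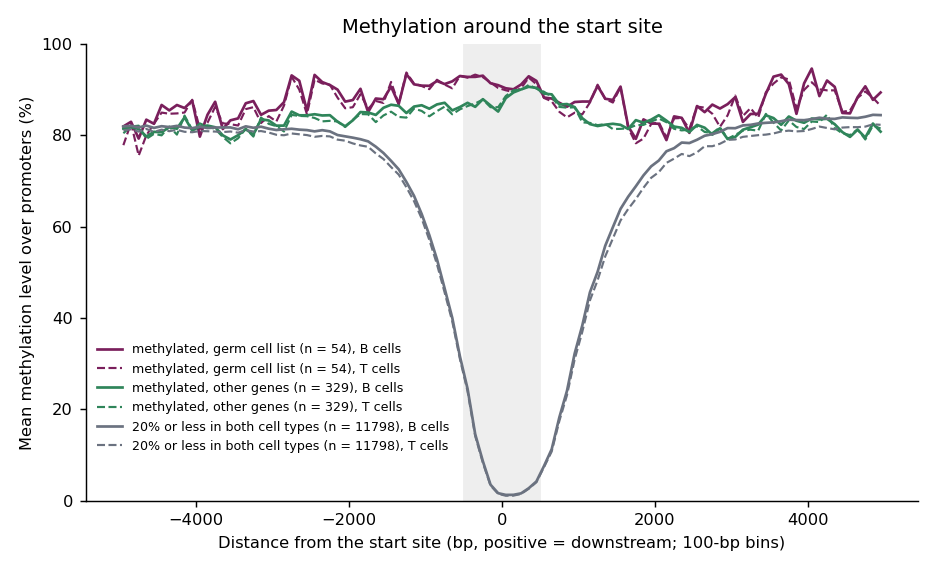
Mean methylation level (y axis, %) in bins of 100 bp from 5000 bp upstream to 5000 bp downstream of the start (x axis, bp), for methylated promoters of germ cell lists, the other methylated promoters, and promoters at 20% or less, in B and T cells. The classes were defined by their levels within 500 bp of the start, so only the stretches beyond it lie outside the rule.

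The flanks, the 2000 bp beyond each edge of the window, were not used by the rule. The upstream flank could be measured for 382 of the 383 promoters and was at 70% or more in both cell types in 341 of them (89.3%), against 51.0% for promoters at 20% or less. Downstream, the counts were 339 of 382 (88.7%) and 18.2%. The downstream flank was at 20% or less in both cell types at *Dazl*, *Nsd1*, *Ppp1r27*, *Hist1h1t*, *1700092M07Rik*, *Mea1*, *Rasip1* and *Smtn*, and the upstream flank at *Tymp*. At *Dazl* the B cell level was 96.9% in the window and 6.965% downstream, and the T cell level 95.7 and 5.25%, over 64 downstream CpGs. At *Nsd1*, a histone methyltransferase gene, 202 downstream CpGs were at 3.215 and 4.498%.

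Some of the 383 genes had another coding start that was unmethylated, as did some genes over all CpG-dense promoters. Another start, over 1000 bp away and with at least 100 calls in each cell type, could be measured for 94 of the 383. Where a gene had several, here and over all promoters, the least methylated by the higher of its B and T cell levels was taken. For 31 of the 94 it was at 20% or less in both cell types, against 1151 of 4366 over all CpG-dense promoters. It could be measured for 9 of the 54 germ cell promoters, too few to describe them, and was at 20% or less for 0 of these. *Jade1* was at 97.1 and 96.7% at its 5′ end, and at 0.456 and 0.249% at a start 7876 bp away with 88 CpGs. *Dgcr2* was at 97.6 and 95.9% at its 5′ end, 75 bp from the start of the testis kinase gene *Tssk2*, and at 0.354 and 0.173% at a start 6969 bp away. *Usp7*, a deubiquitinase gene, was at 94.3 and 94.3% at its 5′ end, and at 0.186 and 0.0759% at a start 53966 bp away with 152 CpGs. The cohesin gene *Stag1*, the Polycomb gene *Cbx7* and the kinase gene *Src* were also among the 31. With the window placed at the start of the longest coding transcript, 394 promoters met the rule and 343 of the 383 remained.

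**Figure D4:**
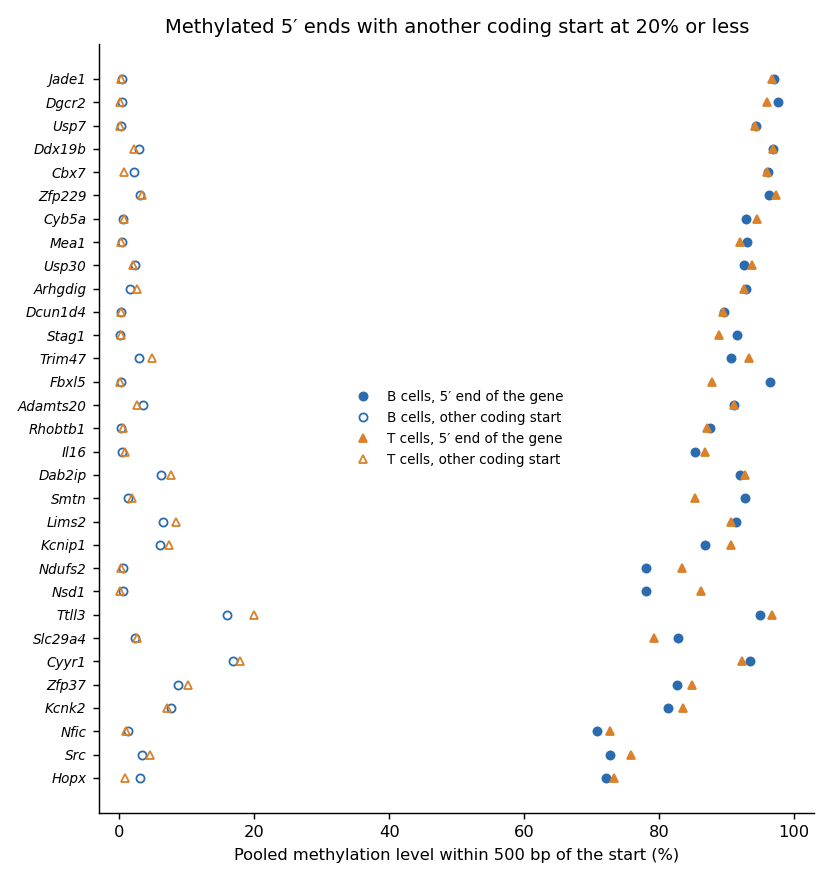
Pooled methylation level (x axis, %) in B and T cells of 31 genes, at the 5′ end that met the rule and at another coding start at 20% or less, 1 gene per row. The 5′ ends lie at 70% or more and the other starts at 20% or less in every row.

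B and T cells were close at most of the 383 promoters, and since their levels chose the promoters, the difference is given with no test. The B cell level was the higher in 185 of 383, against 74.5% of all CpG-dense promoters. The absolute difference was at least 5 points in 36 and at least 10 points in 9, counts given with no share over all promoters. The libraries of B and T cells did not overlap in 13 of 383, 6 higher in B cells and 7 in T cells, and over all CpG-dense promoters the share was 1.65%. With a pooled difference of 10 points in addition, there were 6, against 0.538% of all. Of all 12816 promoters, 11798 were at 20% or less in both cell types, which leaves little room for a difference. The 74.5, 1.65 and 0.538% are thus no matched comparison, and the counts show no excess.

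*Hus1b*, a single-exon paralogue of a DNA damage checkpoint gene, differed most. At *Hus1b* the B cell libraries ran from 63.9 to 82.5% with a median of 71.3%, and the T cell libraries from 89.2 to 98.9% with a median of 94.0%. All T cell libraries lay above all B cell libraries. *Gml* and *Gml2*, neighbours with overlapping windows, were at 76.1 and 75.3% in B cells, and at 89.5 and 89.3% in T cells, and their libraries overlapped. *Myog*, the gene of the muscle transcription factor myogenin, was at 72.0% ± 4.67 and 85.2% ± 3.76. *Slc6a16*, a transporter gene with 57 CpGs, was at 83.7% ± 3.63 and 95.7% ± 1.27, and *Adcy4*, an adenylate cyclase gene, at 70.6% ± 2.60 and 81.9% ± 2.94. The libraries did not overlap at *Myog*, *Slc6a16* and *Adcy4*. At *Hoxa5* the B cell libraries, from 75.8 to 93.2%, reached into the T cell range of 89.2 to 97.1%.

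In the other direction, *Gm9821*, a single-exon gene inside *Dgkz*, was at 95.2% ± 2.12 in B cells and 80.1% ± 7.52 in T cells. *Enthd1* was at 92.0% ± 1.52 and 80.6% ± 5.48, *Calml3*, a calmodulin-like gene, at 93.5% ± 2.19 and 83.2% ± 4.16, and *Fbxl5*, a gene of an iron-sensing ubiquitin ligase, at 96.3% ± 1.83 and 88.1% ± 3.47. At these 4 the libraries did not overlap, and at *Nobox*, the next in this direction, they did.

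Outside the window B and T cells could be tested, with a quasi-binomial model on the calls of each library and with sex and assay as covariates. The model held a single assay term shared by both cell types, so it did not adjust for an assay difference in T cells alone. P-values were adjusted over all CpG-dense promoters by the method of Benjamini and Hochberg. A flank counted as different with an adjusted p below 0.05 and 10 points between the pooled levels. In the upstream flank this held for 18 of 382 promoters (4.71%), against 7% of all CpG-dense promoters, 13 with the higher level in B cells and 5 in T cells. Over all promoters 602 were higher in B cells and 293 in T cells. In the downstream flank it held for 18 of 382 as well, against 6.99% of all, 8 higher in B cells and 10 in T cells. Over all promoters 667 were higher in B cells and 228 in T cells there. In all, 32 promoters had such a flank. Calls in either or both flanks were not counted over all promoters, so these counts show no excess. Both flanks were different at 4 promoters, *1700067K01Rik*, *Crybg2* and *Gm9821* with the higher level in B cells on either side, and *Enthd1* with the higher level in B cells upstream and in T cells downstream. With the flank cut to the 1000 bp next to the window, 9 of the 18 upstream and 11 of the 18 downstream kept their call, and 3 upstream (*Gm7030*, *Hus1b* and *Gm10260*) and 1 downstream (*Dppa5a*) could not be measured.

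The smallest p upstream was that of *Cryab*, a small heat shock protein and lens crystallin gene. In the flank of *Cryab* the B cell libraries ran from 88.7 to 93.6% with a median of 90.5%, and the T cell libraries from 47.3 to 65.8% with a median of 58.4%, over 25 CpGs. The libraries did not overlap, and the pooled levels differed by 32.5 points (adjusted p = 3.46e-07 in the model), while the window of *Cryab* was at 84.5 and 85.6%. In the flank of *Enthd1* the B cell libraries ran from 64.3 to 79.3% with a median of 71.7%, and the T cell libraries from 18.2 to 35.4% with a median of 30.1%, over 20 CpGs. The difference at *Enthd1* was 44.9 points (adjusted p = 2.00e-06 in the model), again with no overlap. *Gm7030* followed with 88.6 against 48.5% over 7 CpGs, a difference of 40.1 points (adjusted p = 2.02e-06 in the model). *Hus1b* was lower in B cells in its upstream flank too (56.9 against 93.1%), by 36.2 points (adjusted p = 2.10e-05 in the model). In the nearest 1000 bp *Cryab* and *Enthd1* kept their call, while *Gm7030* and *Hus1b* held only 2 and 3 CpGs there, and the upstream flank of *Crybg2* lost its call. Part of the T cell spread followed the assay. In the *Cryab* flank the BS libraries of T cells were at 60.1 to 65.8% and the oxBS libraries at 47.3 to 56.6%. T cell BS libraries also lay above all oxBS libraries at *Hus1b*, while they overlapped at *Enthd1* and *Gm7030*. The assay difference was not tested in the flanks.

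Downstream, the smallest p was that of *Crybg2*, a crystallin-fold gene. In the flank of *Crybg2* the B cell libraries ran from 84.9 to 90.9% with a median of 88.7%, and the T cell libraries from 29.4 to 57.0% with a median of 45.9%, over 38 CpGs. The libraries did not overlap, and the difference was 42.7 points (adjusted p = 9.94e-07 in the model). *1700067K01Rik* differed by 18.4 points (adjusted p = 2.02e-06 in the model) and *Zfp229* by 25.6 points (adjusted p = 7.84e-06 in the model), with pooled levels of 91.8 against 73.3% and of 91.7 against 66.1%. At *Crybg2*, *1700067K01Rik* and *Zfp229* the window itself was at 93.8% or more in both cell types. In the *Crybg2* flank the BS libraries of T cells were at 49.3 to 57.0% and the oxBS libraries at 29.4 to 42.5%, while in B cells the assays overlapped. The T cell libraries of both assays were apart at *1700067K01Rik* as well, and overlapped at *Zfp229*. Of the germ cell promoters, *Adad1*, *Tuba3b* and *Dppa5a* had the higher downstream level in B cells and *Dnd1* in T cells, by 10.2 to 11.9 points, and the B and T cell libraries overlapped at all 4. *Dnd1* lost its call when any single one of 13 libraries was left out, *Dppa5a* with any of 9, and *Adad1* without T cell library 6. In the nearest 1000 bp *Crybg2*, *1700067K01Rik*, *Adad1* and *Tuba3b* kept their downstream call, while *Zfp229* (96.0 against 87.9%) and *Dnd1* (79.6 against 86.0%) lost it.

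**Figure D5:**
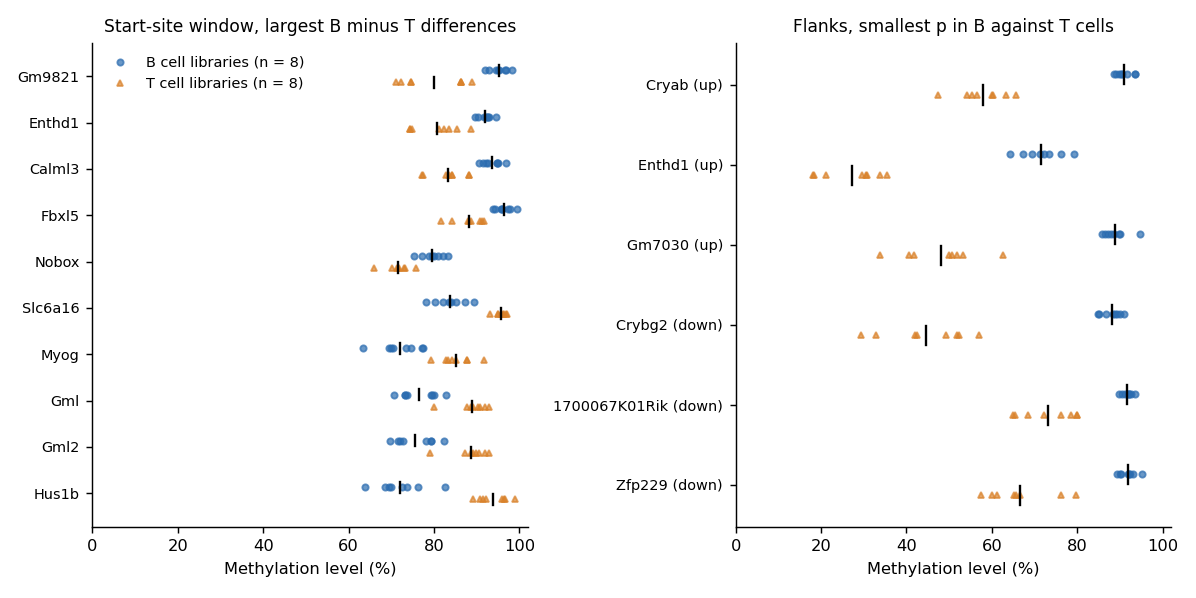
Methylation level (x axis, %) of each B cell and T cell library, with the mean as a bar and n = 8 libraries of each cell type. One panel shows the windows with the largest differences in either direction, where the libraries overlap at *Nobox*, *Gml* and *Gml2*, and the other the flanks with the smallest p, where they overlap at none.

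Sex and assay were not used by the rule, which pooled them. With cell type and assay as covariates, the quasi-binomial model called 0 of 383 promoters between 8 male and 8 female libraries at an adjusted p below 0.05, against 0% of all CpG-dense promoters, and limma called 0 as well. At an unadjusted p below 0.05 there were 20 of 383 (5.22%), against 5.62% of all. The median male minus female difference was -0.157 points over the 383 and 0.079 points over all CpG-dense promoters. The count of 0 does not show that the sexes had equal levels.

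BS and oxBS libraries were compared within each cell type, 4 against 4, with sex as a covariate. In T cells the quasi-binomial model called 0 of 383, against 0% of all, with 26 (6.79%) at an unadjusted p below 0.05, against 7.15% of all. In B cells it called 0, against 0% of all, with 5 (1.31%) at an unadjusted p below 0.05, against 4.04% of all. A BS minus oxBS difference that differed between T and B cells was called for 0, against 0% of all, with 20 (5.22%) at an unadjusted p below 0.05, against 9.42% of all. limma called 0 in each of these comparisons. The median BS minus oxBS difference over the 383 promoters was 0.385 points in T cells, against 0.162 points over all CpG-dense promoters, and in B cells it was -0.0141 points, against -0.196 points. The mean over the 383 promoters lay between 89.7 and 90.2% in the 4 BS libraries of T cells and between 89.2 and 89.5% in the 4 oxBS libraries, with no overlap. At the promoters of 20% or less, the means of the same libraries were 2.73 to 2.86% and 2.37 to 2.47%, again with no overlap. In B cells the means over the 383 were 89.1 to 89.6% in BS and 89.4 to 89.6% in oxBS libraries, which overlapped. With 4 libraries against 4, the counts of 0 do not show that the assays gave equal levels. The smallest p in T cells was that of *Gm9821*, named here after its values were seen, at 87.0% in BS and 73.2% in oxBS libraries (adjusted p = 0.67 in the quasi-binomial model).

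The libraries held between 123693203 and 171130063 calls, and a methylated window had a median of 258 calls per library, or 8.41 per CpG. The windows of *Sfi1*, *AW822073* and *Duxf3* had far more, with *Sfi1* at 14977 to 22860 calls per library over 60 CpGs, and the part that this depth has in their B cell levels of 83.4, 88.1 and 92.9% was not tested. As a check of the cell types, the starts of 8 of 8 B cell marker genes were less methylated in B cells, with 8 where the libraries did not overlap. Those of 10 of 10 T cell marker genes were less methylated in T cells, with 9 where the libraries did not overlap. At *Cd3e*, which encodes a T cell receptor component, the level was 89.6% for B and 1.87% for T cells. Differences were smaller at some markers, with B and T cell levels of 93.2 and 90.8% at *Cd28*. They were 9.48 and 3.65% at *Thy1*, 3.62 and 0.101% at *Bcl11b*, and 0.201 and 9.67% at the B cell marker *Blk*. Since 74.5% of all CpG-dense promoters were higher in B cells, a lower T cell level alone says little.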

How the data were processed

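The authors deposited counts of unmethylated and methylated calls per CpG for every library, both strands combined, without normalization. Per the labels and the study's methods, reads were trimmed with Trim Galore 0.6.0 and mapped to mm10 with Bismark 0.20.0, SAMtools 1.3.1 was used, and alignments needed a MAPQ of at least 10.

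Here, calls were summed over reference CpGs (GRCm38) per window and library, and a level was methylated calls over all calls. Pooled levels summed the 8 libraries of a cell type, and errors are SDs between library levels. Depth covers counting error only, since calls need not be independent molecules. Tests were two-sided quasi-binomial logistic F tests with a dispersion of at least 1, adjusted over 12816 promoters (12778 and 12807 for the upstream and downstream flanks, which needed 5 CpGs and 100 calls in each cell type). The test was tried on simulated data first, where it missed most assay differences of 15 points and called a few unchanged promoters. It also missed most sex and flank differences of 5 points. Alternatives were limma 3.58.1 (R 4.3.3) on log ratios of the calls, other limits, windows and sets of libraries, and leaving out each library. Python 3.11.15, NumPy 2.4.6, pandas 2.3.3, SciPy 1.17.1 and Matplotlib 3.10.9 were used.

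The promoters and gene lists were chosen with earlier results of these data known. Genes were named by a rule: every methylated promoter on the germ cell lists, the 5 highest and 5 lowest levels, the 5 with most CpGs, the 5 largest B cell excesses and the 5 largest T cell excesses, the 3 smallest p among those called per comparison, the 3 with most CpGs on each other list, the 3 with the largest difference from another start, and the 3 just outside the limit. Other genes were named after their values were seen.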

Additional observations from a re-analysis of the deposited data

Results flagged for a closer look

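Among 178 groups of 8 libraries of 1 cell type, 17 (9.55%) held a library that stood apart from the others by Dixon's ratio, at a critical value of 0.526. Chance flags about 1 in 20 groups. In B cells the library apart was the lowest at 6 promoters. It was at 83.2% for *D1Pas1* (library 3, with the nearest other library at 90.1%), 88.0% for *Terb2* (library 4), 83.2% for *Gpat2* (library 12), 94.3% for *Stk31* (library 2), 96.2% for *Hist1h2ba* (library 1) and 62.5% for *Foxs1* (library 12, nearest 74.5%).

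In T cells it was the lowest at 8 promoters. It was at 93.2% for *Sohlh2* (library 13), 89.8% for *Sycp1* (library 5), 91.1% for *Msh4* (library 16), 94.5% for *Hist1h2aa* (library 8), 89.2% for *Hoxa5* (library 15), 79.1% for *Gml2* (library 16, nearest 87.3%), 80.1% for *Gml* (library 16, nearest 87.8%) and 91.5% for *Mcts2* (library 8). It was the highest for *Sycp3* (98.4%, library 14), *Ddx4* (99.1%, library 15) and *4933416C03Rik* (97.6%, library 14). The windows of *Gml* and *Gml2* overlap, so their values are not separate.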

How the results depend on the processing

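The number of promoters that met the rule was 383. It was 758 with 20 CpGs, 204 with 30 CpGs and 169 with 1000 bp on either side and 50 CpGs. It lay between 328, with a limit of 80%, and 574, with 250 bp on either side, under the other limits, windows and sets of libraries tried, and leaving out each library gave 381 to 385. Flank calls were 18 upstream and 18 downstream. With no limit on the difference they were 45 (13.8% of all promoters called) and 56 (18.7%), and with 20 points 8 (2.03%) and 4 (1.75%). Leaving out each library gave 16 to 19 upstream and 16 to 18 downstream, and limma called the same 18 in each. *Calml3* and *Gm10260* each lost their upstream call without any single one of 6 libraries, and *1110002E22Rik* without B cell library 12. A flank of 1000 bp gave 16 and 19, of which 9 and 11 were among the 18. Without both male BS libraries of B cells, an alternative chosen after seeing the data, the counts were 385 promoters, 16 upstream and 17 downstream. Flank counts from limma, from the 1000 bp flank and with libraries left out are given with no share over all promoters, so they show no excess. Sex, the assay in each cell type and the difference between them stayed at 0 with limma and with each library left out (0 to 0). Leaving out a library lowers power, so counts that stay at 0 say little on stability. Limits of 5 points and of 10 calls in every library were also run, but the first cannot add a call and the second removes none of the 383, so they say nothing on stability. Of 352 recomputed levels of 88 named promoters, 352 moved by less than 1 SD. They were recomputed from the same calls, so their shifts could hardly be large and say little on stability. No paired analysis was possible because the labels number the libraries from 1 to 16 and no number is shared between groups. At 8.41 calls per CpG and library, the level of a single CpG in a single library was not resolved.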
